A study of Homo sapiens with 18 samples.

Results

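ATP-binding cassette (ABC) genes were taken as all gene rows of the RNA-seq tables whose symbol consists of ABC, a subfamily letter from A to G and a number. This rule found 46 of 23368 gene rows, namely 12 of subfamily A, 9 of B, 12 of C, 4 of D, 1 of E, 3 of F and 5 of G. Family members with other symbols (TAP1, TAP2, CFTR) were not chosen by the rule and are given only where a result touches them.

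The study asked how an inhibitor of CDK4 and CDK6 changes the response to an antagonist of MDM2, the ubiquitin ligase that restrains p53. All 18 libraries came from SJSA cells (SJSA-1), an osteosarcoma cell line in which the MDM2 and CDK4 genes are amplified together, so every value is from a single tumor line. There were 6 groups with 3 biological replicates each. The control group, DMSO, received neither drug. The group named Nutlin received the MDM2 antagonist Nutlin for the last 6 h. PD30 was kept in PD0332991 (Palbociclib) at 10 µM for 30 h. PD24 was kept in it at the same dose for 24 h and then without it for the remaining 6 h. N+PD24 and N+PD30 received Nutlin for the last 6 h on top of either schedule. The sample labels give Nutlin at 20 µM.

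ABC proteins use ATP to move substrates across membranes. Subfamily A and part of subfamily G move sterols and phospholipids, subfamily C and several B and G members export drugs, conjugates and bile salts, and subfamily D works in peroxisomes and lysosomes. Members of E and F have no membrane domains and act on ribosomes and translation. ABCA1 and ABCG1 hand cholesterol to lipoprotein particles, and their genes are textbook targets of the liver X receptors (LXR), which sense oxysterols. When cells are short of sterol, the transcription factor SREBP2 raises cholesterol synthesis and uptake instead.

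To show what lies at the promoters of these genes, RefSeq start sites were searched in windows of 300 bases, from 250 bases before to 50 after each start (build GRCh38.p14, whereas all gene positions further on are on hg19). Windows were found for 35 of the 46 genes. The ABCA1 window is printed because ABCA1 changed most between the PD schedules. It lies at chr9:104928106-104928405 on the minus strand. The capitals mark an E-box (CACGTG) and a match to the LXR element, which is printed here in reverse orientation:
ABCA1 promoter: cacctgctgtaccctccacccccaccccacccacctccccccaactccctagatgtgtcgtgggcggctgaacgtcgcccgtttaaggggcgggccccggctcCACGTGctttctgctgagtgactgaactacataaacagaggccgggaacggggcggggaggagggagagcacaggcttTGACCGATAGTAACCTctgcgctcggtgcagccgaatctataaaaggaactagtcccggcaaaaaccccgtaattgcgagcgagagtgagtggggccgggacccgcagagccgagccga

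The LXR element, a direct repeat of AGGTCA with a spacer of 4 bases, was searched on both strands with up to 2 mismatches in all, and was found in 3 of the 35 genes (4 of their 53 windows, since a gene can have several). The matches are written so that they read like the searched letters, with both repeats in capitals:
ABCA1, chr9:104928209-104928224: AGGTTActatCGGTCA
ABCC6, chr16:16223618-16223633: AGGCCAcgggAGGTGA
ABCD2, chr12:39619997-39620012: AGGTCGaatcAGGCCA

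Each of these 3 matches differs from the searched letters at 2 positions, and 2.34% of all 35116 windows hold such a match. CACGTG was found in 9 of the 53 windows of the 35 genes, which belong to 8 genes (7.26% of all windows). The sterol regulatory element of SREBP2 was searched on both strands with up to 1 mismatch and was found in 0 of the 35 (1.70% of all windows). The p53 element, with a spacer of 0 or 1 and up to 1 mismatch, was also found in 0 of the 35 (0.154% of all windows). A match of letters is a description and shows no binding, and a missing match covers only the window searched.

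The total counts of the libraries ranged from 12704845 to 40231041 (median 29608936), and N+PD30 replicate 1 had the lowest total. Levels are given as CPM, a gene's counts per 1000000 counts of its own library. The ABC genes together took 0.118 to 0.146% of all counts. As a check of the labels, all 6 tested p53 targets rose with Nutlin (median log2 fold change 3.28), and all 6 tested proliferation genes fell with PD30 (median -5.83). Of the osteoblast markers, RUNX2, COL1A1 and ALPL were detected in every library, while SP7, BGLAP and IBSP lay at or near 0 in all 18. The remaining marker, SPP1, was higher in PD30 and PD24 than in DMSO, and in N+PD24 and N+PD30 than with Nutlin (adjusted p below 0.05). By the same limit, COL1A1 was higher with Nutlin than in DMSO and lower in PD30 than in PD24. Of 6 markers of other cell types, PTPRC, HBB, EPCAM, PECAM1 and ALB were at most at 2.65 CPM in any library, while CD68 lay between 13.6 and 36.4 CPM. The sum of the 6 was 15.1 to 21.6 CPM in DMSO, 22.2 to 29.2 CPM with Nutlin, 25.2 to 32.5 CPM in PD24, 28.2 to 38.3 CPM in PD30, 35.5 to 39.5 CPM in N+PD24 and 26.6 to 35.3 CPM in N+PD30. More genes had at least 1 count in the Nutlin libraries (19464 to 19626) and in N+PD24 (19117 to 20447) than in DMSO (18047 to 18242), PD30 (18346 to 18535) or N+PD30 (17871 to 18519). The part of this difference in the low-level genes below was not tested.

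In DMSO, ABC genes spanned more than 4 orders of magnitude. On a scale that can be compared between genes (CPM per kilobase of the canonical transcript, mean ± SD, n = 3), ABCE1 was highest at 48.9 ± 5.56, followed by ABCF1 at 44.1 ± 1.69 and ABCF2 at 28.3 ± 1.05. These are soluble proteins that recycle ribosomes or act in translation. Of the membrane transporters, ABCC1, an exporter of glutathione conjugates and drugs, led with 26.0 ± 2.0, before ABCD3 of the peroxisome membrane with 21.6 ± 0.477 and ABCB10 of the mitochondrion with 11.4 ± 0.926. ABCA1 reached 5.57 ± 0.0830 and ABCG1 3.82 ± 0.831, the highest levels of subfamilies A and G. ABCC12 was lowest with 0.00137 ± 0.00237. Of the 46 genes, 25 averaged above 10 CPM in DMSO, 9 lay between 1 and 10 CPM, and 12 lay below 1 CPM.

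The makeup of the ABC counts changed with the drugs. Subfamily A took 8.81 to 9.66% of all ABC counts in the DMSO libraries, 17.2 to 19.2% with Nutlin and 20.1 to 25.1% in N+PD24, but 6.02 to 6.65% in PD30. Of the subfamily's mean sum, ABCA1 alone made up 58.0 of 120.8 CPM in DMSO and 153.9 of 240.0 CPM with Nutlin. The share of the 3 genes of subfamily F went from between 25.0 and 26.2% in DMSO to between 16.5 and 17.9% with Nutlin. Subfamily G took 1.72 to 1.86% in DMSO and 0.597 to 0.654% in PD30, and subfamily C went from between 26.6 and 28.3% to between 36.1 and 37.8% in PD30. In each of these pairs the libraries of the groups did not overlap. These shares are of counts, so long transcripts weigh more in them than short ones, and they are given as a description with no test.

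Of the 46 genes, 38 had enough counts to be tested in all 7 comparisons, 3 were tested in some (ABCA6 and ABCB11 in 4, ABCC12 in 1), and ABCC8, ABCC11, ABCC13, ABCG5 and ABCG8 were tested in none. ABCA6 and ABCB11 entered their called comparisons through the Nutlin libraries, and ABCC12 through those of N+PD24, where each was high. The direction of their calls was thus set by the filter, and these calls are part of the counts below. A gene was called when its Benjamini-Hochberg adjusted p over all genes tested was below 0.05 (edgeR's quasi-likelihood test, or limma for N+PD24). The comparisons share the DMSO or the Nutlin libraries, so their results are not independent of each other.

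Nutlin raised 17 and lowered 8 of 40 tested ABC genes against DMSO, while it raised 26.6% and lowered 28% of all genes tested. By adjusted p together with a 2-fold change, 10 ABC genes were higher and 0 lower, against 12.4% and 8.42% of all genes. The 0 falls rest on the fold limit, since 8 genes were lower by edgeR's adjusted p alone and 9 with no filter on low counts. The median log2 fold change was 0.38 over the tested ABC genes and 0.03 over all genes. When libraries were scaled to total counts without TMM, the median of all genes moved by -0.13 and the calls over all genes shifted from 4198 higher and 4416 lower to 3151 higher and 5439 lower. Under this scaling, 15 ABC genes were higher and 9 lower.

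PD30 raised 8 and lowered 10 of 38 tested ABC genes against DMSO (22.9% and 25.4% of all genes). PD24 raised 9 and lowered 6 of 38 against DMSO (17.5% and 20.8%), or 9 and 8 with the replicate number as a block (21.7% and 23.3% of all genes). Between the schedules, PD30 was higher than PD24 in 2 and lower in 8 of 38 (12.2% and 12.9%), or higher in 6 and lower in 10 with the block (19.7% and 20.6%). With Nutlin present, N+PD30 was higher than Nutlin in 8 and lower in 16 of 40 (24.3% and 24.7%). N+PD24 was higher than Nutlin in 8 and lower in 3 of 41 (16.9% and 16.9%), or higher in 12 and lower in 9 with the block (26.5% and 25.7%). By adjusted p together with a 2-fold change, 3 ABC genes were higher and 4 lower in PD30 (5.76% and 9.48% of all genes), 6 and 2 in PD24 (4.61% and 7.96%), and 1 and 2 in PD30 against PD24 (3.42% and 4.07%). With Nutlin present these counts were 2 and 10 in N+PD30 (8.43% and 13.9%) and 4 and 0 in N+PD24 (4.5% and 7.3%), where limma called 3 lower by adjusted p alone. By adjusted p, the share of ABC genes was above that of all genes by more than 10 percentage points for rises with Nutlin and for falls in N+PD30, and no test of these shares was made.

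**Figure D1:**
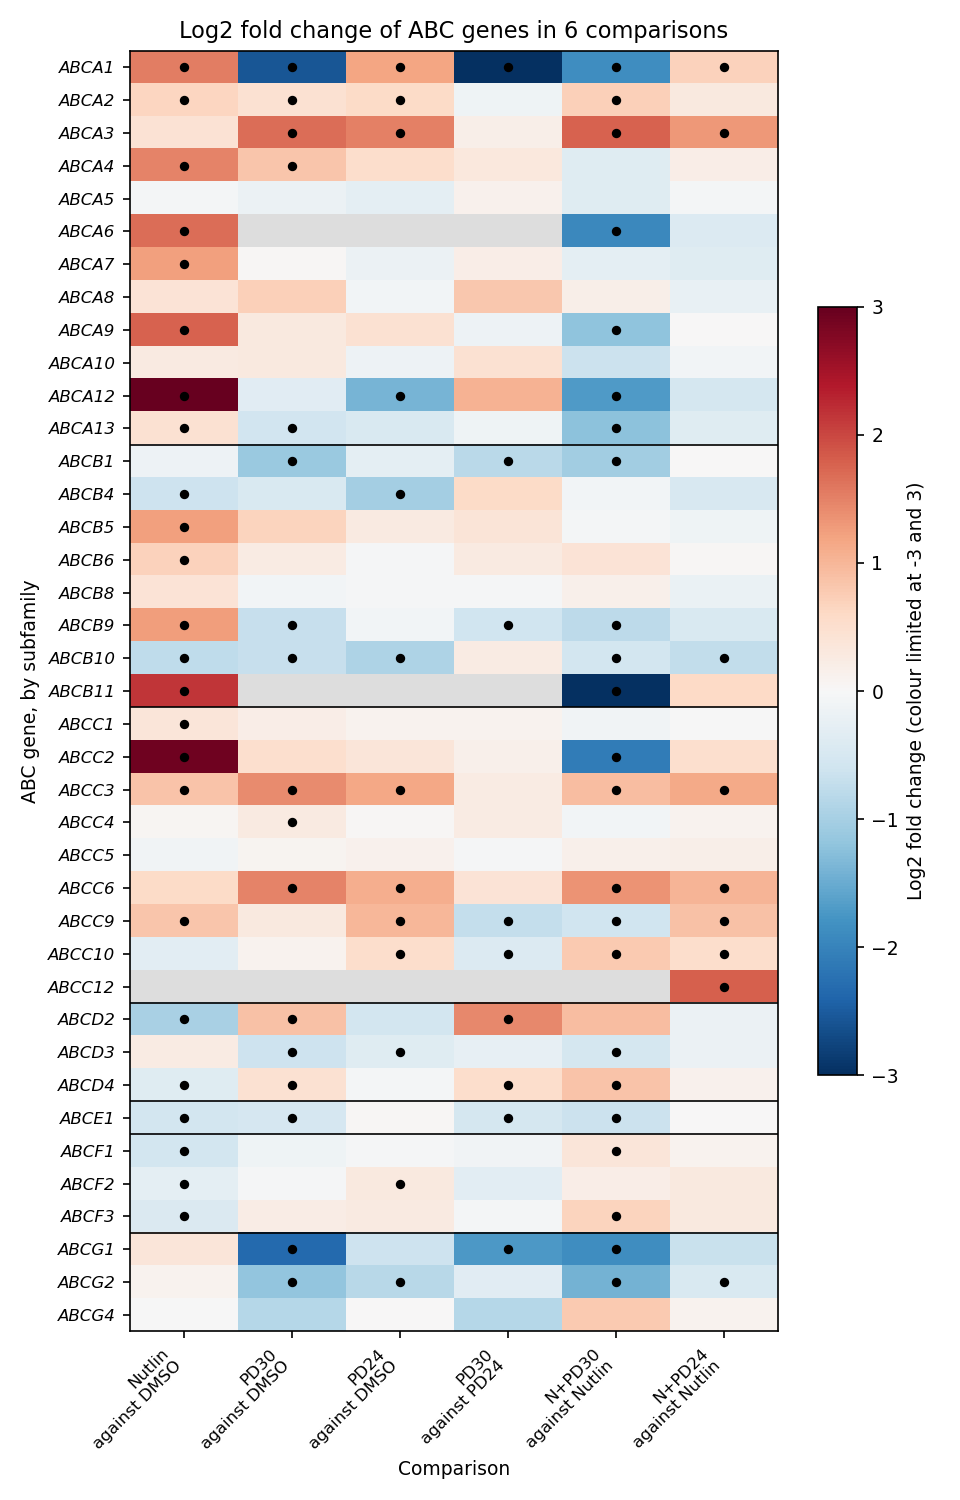
Log2 fold change (color, limited at -3 and 3) of 39 of the 41 ABC genes tested in at least 1 of 6 comparisons (columns), ordered by subfamily with black lines between subfamilies. Black dots mark an adjusted p below 0.05 and grey cells were not tested. ABCA1 is the gene with the largest fall of the column PD30 against PD24, and the Nutlin column is mostly red in subfamily A and blue in E and F.

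ABCA1 (chr9:107543287-107690436, minus strand), which loads cholesterol and phospholipid onto apolipoprotein A-I, changed in all 6 pairwise comparisons. Its level was 59.0, 57.3 and 57.7 CPM in DMSO, 171.7, 136.8 and 153.1 CPM with Nutlin, and 165.3, 121.8 and 98.7 CPM in PD24. In PD30 it was 12.3, 9.23 and 8.18 CPM. In N+PD24 it was 295, 220.3 and 204.7 CPM, and in N+PD30 it was 71.7, 33.8 and 23.9 CPM. All libraries with continuous PD0332991 and no Nutlin were therefore below all others, and the N+PD24 libraries above all others.

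ABCA1 rose with Nutlin by a log2 fold change of 1.53 ± 0.10 (SE, adjusted p = 3.16e-06) and in PD24 by 1.17 ± 0.17 (adjusted p = 8.64e-04). It fell in PD30 against DMSO by 2.57 on the log2 scale (SE 0.15, adjusted p = 7.59e-07), and against PD24 by 3.74 (SE 0.23, adjusted p = 8.72e-05). The last is the largest change of any ABC gene between the schedules, which differ only in the last 6 h. With Nutlin present, ABCA1 fell in N+PD30 by 1.87 (SE 0.33, adjusted p = 9.94e-04), and by 2.46 (SE 0.19) without N+PD30 replicate 1. In N+PD24 it rose by 0.70 ± 0.16 (adjusted p = 0.00863). The Nutlin response itself was 1.49 without and 2.23 with PD0332991 on the log2 scale, and this difference of 0.74 (95% interval -0.17 to 1.64) did not pass the test (adjusted p = 0.241). It was 0.14 without N+PD30 replicate 1.

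ABCG1 (chr21:43619799-43717354, plus strand) passes cholesterol on to high-density lipoprotein. It was at 13.3, 12.2 and 8.57 CPM in DMSO and at 15.4, 15.6 and 8.81 CPM with Nutlin, which overlap. PD24 libraries held 8.89, 7.63 and 5.32 CPM and PD30 libraries 2.45, 2.14 and 2.24 CPM. With Nutlin, the levels were 7.71, 8.96 and 6.61 CPM in N+PD24 and 7.79, 2.15 and 2.13 CPM in N+PD30. ABCG1 thus followed ABCA1 downward in PD30 (log2 -2.34 ± 0.19 against DMSO, adjusted p = 1.13e-05, and -1.71 ± 0.22 against PD24, adjusted p = 9.81e-04) and in N+PD30 (-1.85 ± 0.46, adjusted p = 0.00649). It did not pass the test with Nutlin (log2 0.36, 95% interval -0.18 to 0.90, adjusted p = 0.237). In PD24 against DMSO its value was -0.62 (adjusted p = 0.0629, and 0.00384 with the replicate number as a block), whereas ABCA1 rose there. In N+PD24 against Nutlin the value was -0.66 (adjusted p = 0.0615, and 3.04e-04 with the block).

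Genes controlled by sterols outside the ABC family were followed beside these exporters. MYLIP, an LXR target that encodes a ubiquitin ligase of lipoprotein uptake, lay between 15.4 and 17.4 CPM in DMSO and between 3.58 and 5.81 CPM in PD30 (log2 -1.72 ± 0.19, adjusted p = 6.83e-05). It also fell against PD24 by 1.56 and in N+PD30 against Nutlin by 1.52. The 12 LXR targets other than ABC genes did not share a direction: of 11 tested in PD30 against DMSO, 4 were higher and 2 lower (MYLIP and LPL), with a median of 0.07. Of all genes, 22.9% were higher and 25.4% lower there. With continuous PD0332991, the SREBP2 targets moved the other way from ABCA1 and ABCG1. All 13 tested were higher in PD30 than in DMSO and in N+PD30 than with Nutlin, each by more than 2-fold, with medians of 2.15 and 1.97. By adjusted p and a 2-fold change, 5.76% and 8.43% of all genes were higher in these comparisons. In PD30 against PD24, 12 of 13 were higher (12.2% of all genes). Without PD0332991 in the last 6 h the SREBP2 targets were mixed. In PD24 against DMSO 5 were higher and 3 lower (17.5% and 20.8% of all genes). In N+PD24 against Nutlin, where ABCA1 rose, 6 were higher and 2 lower (16.9% and 16.9%).

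Among these, INSIG1, which holds SREBP2 back when sterol is plentiful, was at 37.3, 40.3 and 55.2 CPM in DMSO and at 187.1, 174.2 and 236.6 CPM in PD30 (log2 2.16 ± 0.16, adjusted p = 5.53e-06), with no overlap. It was at 12.6, 15.7 and 36.9 CPM in PD24 and at 64.3, 187.8 and 239.2 CPM in N+PD30. Replicate 1 of N+PD30 thus held the highest ABCA1, ABCG1 and MYLIP and the lowest INSIG1 of its group, and it was also the shallowest library. Without it, ABCG1 fell against Nutlin by 2.69 on the log2 scale (SE 0.30, adjusted p = 5.98e-05). The part of sterol state in these changes of ABCA1 and ABCG1 was not tested.

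Nutlin raised 8 of the 12 genes of subfamily A, ABCA1 among them, and the other 4 did not pass the test (26.6% of all genes were higher). Of the 8, the calls of ABCA2 and ABCA13 were each lost in 4 of 6 fits without 1 library (adjusted p up to 0.0798 and 0.125). With ABCA1 aside, 5 rose more than 2-fold. ABCA12 (chr2:215796266-216003349, minus strand), which loads lipid into lamellar granules of skin, rose most of all ABC genes. It was at 0.485, 0.659 and 0.679 CPM in DMSO and at 10.6, 10.2 and 8.00 CPM with Nutlin (log2 4.10 ± 0.22, adjusted p = 1.29e-06). It stayed low in PD24 at 0.238, 0.253 and 0.199 CPM, a fall against DMSO (log2 -1.39 ± 0.32, adjusted p = 0.00909), and was at 0.585, 0.528 and 0.341 CPM in PD30. N+PD24 held 4.92, 6.63 and 7.55 CPM and N+PD30 held 2.91, 3.29 and 2.91 CPM, so that the 3 Nutlin groups did not overlap. The fall from Nutlin to N+PD30 was 1.69 on the log2 scale (SE 0.20, adjusted p = 6.26e-05). The value for N+PD24 against Nutlin was -0.52 (adjusted p = 0.0582, and 0.00875 with the block).

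ABCA4, which clears retinoids from photoreceptor disks, lay at 1.33, 1.08 and 0.711 CPM in DMSO and at 2.59, 2.53 and 2.91 CPM with Nutlin (log2 1.48 ± 0.24, adjusted p = 6.31e-04). Its value for PD30 against DMSO was 0.84 (adjusted p = 0.0238). This call was lost without DMSO replicate 2 or 3 or PD30 replicate 1 or 2 (adjusted p up to 0.0722). ABCA7, a phospholipid exporter, rose with Nutlin by 1.24 ± 0.32 (adjusted p = 0.00831), although Nutlin replicate 1 (6.32 CPM) fell inside the DMSO range of 2.62 to 6.54 CPM.

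ABCA9 and ABCA6 belong to a run of 5 neighboring genes on the minus strand of chromosome 17, from ABCA8 at 66863430 to ABCA5, which ends at 67323385. Only these 2 of the 5 passed the test with Nutlin. ABCA9 went from 0.727, 0.694 and 1.03 CPM to 2.82, 1.87 and 2.98 CPM (log2 1.76 ± 0.26, adjusted p = 3.22e-04), with no overlap. ABCA6 had 4, 7 and 4 counts in DMSO and 14, 13 and 15 with Nutlin (log2 1.66 ± 0.39, adjusted p = 0.00472). Only its Nutlin libraries had enough counts, so a call could only be a rise against DMSO and a fall in N+PD30. In N+PD30, ABCA9 was at 1.10, 0.941 and 1.40 CPM, a fall of 1.2 on the log2 scale against Nutlin (SE 0.27, adjusted p = 0.00410). ABCA6 was down to 0, 3 and 5 counts there (adjusted p = 0.0139), a call that was lost without N+PD30 replicate 2 (adjusted p = 0.0735). The neighbors ABCA5, ABCA8 and ABCA10 did not pass in any comparison, except that ABCA8 passed in PD30 against PD24 with the replicate number as a block (log2 0.80, adjusted p = 0.171, and 0.00376 with the block). Whether the Nutlin response of these neighbors differs from that of ABCA6 and ABCA9 was not tested.

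ABCA3, which packs surfactant lipids in lung, behaved in another way. It was at 1.36, 0.832 and 1.16 CPM in DMSO and overlapped it with Nutlin at 1.05, 1.27 and 1.88 CPM. All libraries that had seen PD0332991 were higher, with 2.55, 2.53 and 4.40 CPM in PD24, 4.24, 3.31 and 3.49 CPM in PD30, 3.36, 2.71 and 4.12 CPM in N+PD24 and 5.35, 3.90 and 5.42 CPM in N+PD30. The log2 fold changes were 1.52 ± 0.28 in PD24 (adjusted p = 0.00313), 1.69 ± 0.22 in PD30 (adjusted p = 2.02e-04), 1.31 ± 0.25 in N+PD24 (adjusted p = 0.00324) and 1.76 ± 0.26 in N+PD30 (adjusted p = 3.01e-04). ABCA3 was the largest rise among ABC genes in the last, in PD30 and in PD24. PD30 and PD24 did not differ beyond their spread (log2 0.17, 95% interval -0.37 to 0.71). ABCA13, a very long gene with 9.54 ± 1.45 CPM in DMSO (SD, n = 3), fell more than 2-fold only in N+PD30 against Nutlin, from between 11.0 and 13.3 CPM to between 4.03 and 6.85 CPM (log2 -1.23 ± 0.22, adjusted p = 8.73e-04).

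**Figure D2:**
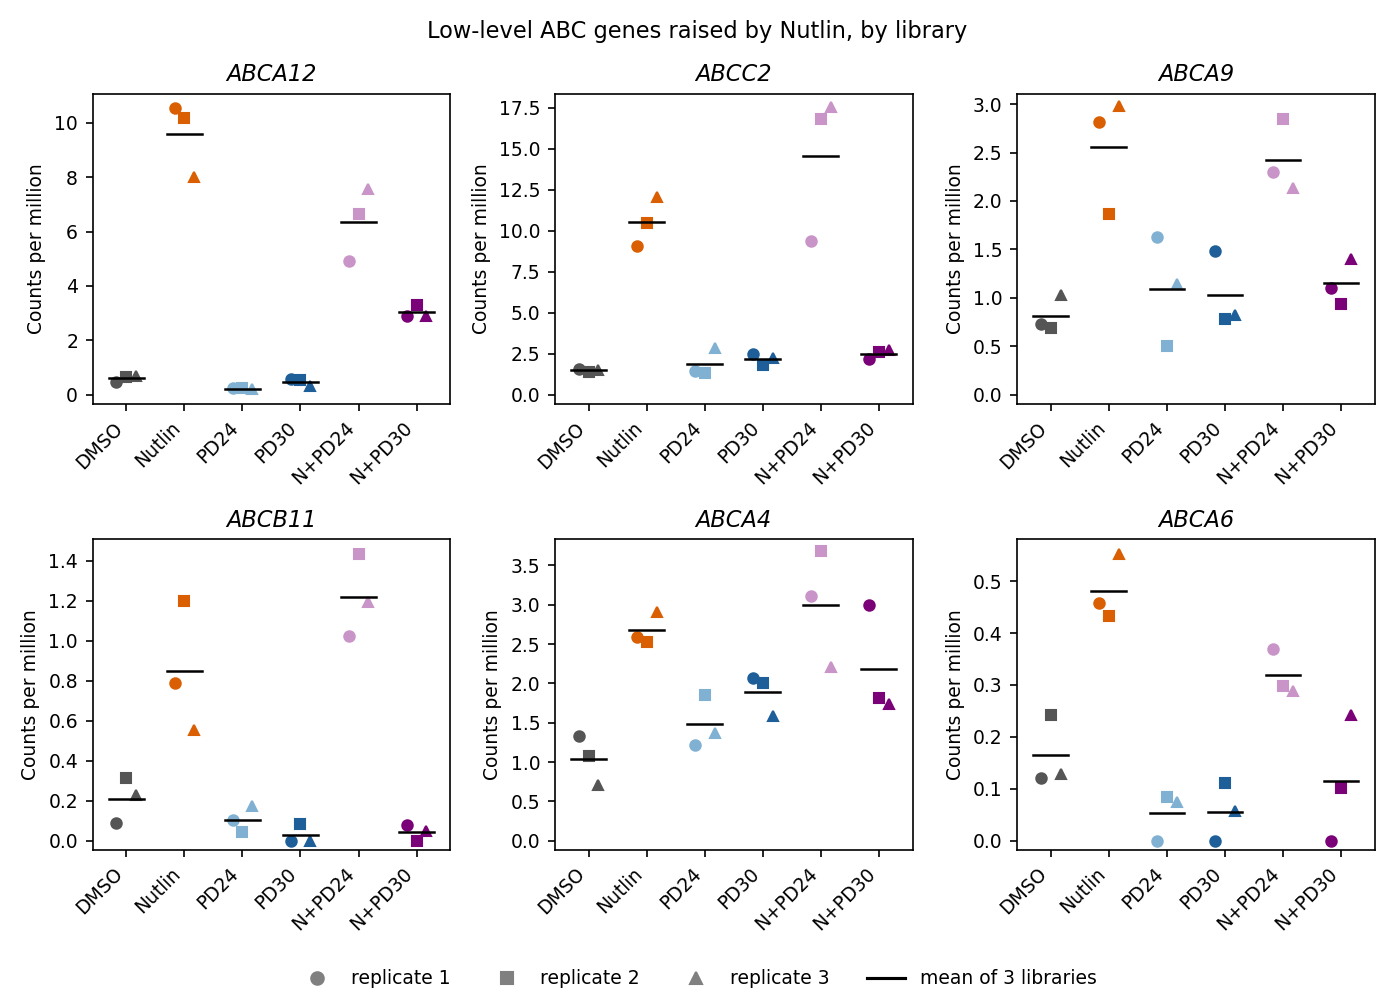
Level of 6 ABC genes that Nutlin raised from a low level, in each of the 18 libraries (CPM, linear axes that differ between panels), with the mean of 3 as a black line. ABCA12, ABCC2 and ABCB11 are high with Nutlin and in N+PD24 and much lower in N+PD30.

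Of the drug, conjugate and bile salt exporters, 5 of 11 tested rose with Nutlin and the other 6 did not pass the test (26.6% of all genes were higher). ABCC2 (chr10:101542397-101612351, plus strand), which sends conjugates into bile, was at 1.58, 1.42 and 1.52 CPM in DMSO and at 9.04, 10.5 and 12.05 CPM with Nutlin (log2 2.92 ± 0.17, adjusted p = 1.81e-06). It was at 1.46, 1.31 and 2.86 CPM in PD24 and at 2.48, 1.81 and 2.24 CPM in PD30. N+PD24 held 9.34, 16.8 and 17.5 CPM, but N+PD30 only 2.20, 2.59 and 2.76 CPM, which overlapped PD30 without Nutlin. The fall from Nutlin to N+PD30 was 2.09 on the log2 scale (SE 0.19, adjusted p = 1.01e-05). N+PD24 against Nutlin gave 0.49 (adjusted p = 0.112, and 0.00269 with the block).

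ABCB11, the bile salt export pump, was likewise high with Nutlin and in N+PD24, at a much lower level. It had 3, 9 and 7 counts in DMSO, 24, 36 and 15 with Nutlin, 25, 53 and 33 in N+PD24, and 1, 0 and 1 in N+PD30. The rise with Nutlin was 2.16 ± 0.46 on the log2 scale (adjusted p = 0.00294). Against DMSO and N+PD30 it had enough counts only in the Nutlin libraries, so a call could take only the direction given here. From Nutlin to N+PD30 the ratio of the summed counts, scaled to total counts, was 27.0 (exact 95% interval 7.22 to 227, for counting error only), and edgeR's adjusted p was 4.19e-04. CFTR, an ABC protein that forms a chloride channel, had 2, 4 and 5 counts in DMSO, 39, 25 and 20 with Nutlin and 0, 3 and 1 in N+PD30. ALB, the liver marker on the list of other cell types, had 0, 0 and 1 counts in DMSO, 70, 61 and 72 with Nutlin, 27, 31 and 34 in N+PD24 and 5, 10 and 5 in N+PD30. CFTR and ALB also entered the test of Nutlin against DMSO only through the Nutlin libraries. Of the 6 markers of other cell types, 4 were tested with Nutlin and 3 of them rose, ALB, PECAM1 (log2 1.46 ± 0.31, adjusted p = 0.00286) and CD68 (log2 0.48 ± 0.17, adjusted p = 0.0336, and up to 0.145 with 1 library left out). ALB and PECAM1 fell from Nutlin to N+PD30. The part of other cell types in the levels of ABCB11 and ABCC2 was not tested.

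ABCB5, a drug exporter of melanoma and limbal stem cells, rose with Nutlin from 0.909, 1.28 and 1.13 CPM to 2.46, 1.57 and 3.21 CPM (log2 1.24 ± 0.28, adjusted p = 0.00396). ABCC1, the exporter with the highest level, rose by only 0.36 ± 0.10 (adjusted p = 0.0100), from between 156 and 182 CPM to between 186 and 207 CPM.

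ABCC3 (chr17:48712138-48769614, plus strand), an exporter of conjugates and bile salts, was raised by both drugs. Its level was 30.0, 28.3 and 23.0 CPM in DMSO, 37.2, 48.3 and 50.3 CPM with Nutlin, 61.9, 61.3 and 55.6 CPM in PD24 and 70.2, 80.2 and 67.9 CPM in PD30. N+PD24 libraries reached 83.3, 100.1 and 97.8 CPM and N+PD30 libraries 97.0, 88.8 and 80.5 CPM. The DMSO, Nutlin, PD24 and PD30 libraries followed each other with no overlap between neighbors in this order. PD0332991 added 1.16 ± 0.13 in PD24 and 1.41 ± 0.12 in PD30 on the log2 scale (adjusted p = 1.77e-04 and 1.60e-05). On top of Nutlin it added 1.13 ± 0.13 in N+PD24 and 0.94 ± 0.15 in N+PD30 (adjusted p = 2.26e-04 and 4.85e-04).

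ABCC6, which sustains pyrophosphate outside cells and is mutated in pseudoxanthoma elasticum, lay at a low level. It was at 2.45, 1.18 and 0.937 CPM in DMSO and at 2.16, 1.87 and 2.25 CPM with Nutlin, and these groups overlap (adjusted p = 0.161). It was at 3.63, 3.41 and 2.63 CPM in PD24 and at 5.44, 4.23 and 3.52 CPM in PD30 (log2 1.5 ± 0.33 in PD30, adjusted p = 0.00468). In PD24 the value was 1.09 (adjusted p = 0.0318), a call that was lost without DMSO replicate 2 or 3 or PD24 replicate 1 or 2 (adjusted p up to 0.111). N+PD24 and N+PD30 rose against Nutlin by 1.02 ± 0.19 and 1.35 ± 0.22 (adjusted p = 0.00251 and 6.25e-04). ABCC6 has the near copies ABCC6P1 and ABCC6P2, between which reads can be split, so its level is uncertain. ABCC6P1 averaged 0.409 CPM in DMSO and 1.19 CPM in PD30, and ABCC6P2 0.321 and 0.275 CPM.

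Of 10 tested drug, conjugate and bile salt exporters, 3 were higher (ABCC3, ABCC4 and ABCC6) and 2 lower (ABCB1 and ABCG2) in PD30 than in DMSO (22.9% and 25.4% of all genes). The call of ABCC4 (log2 0.27 ± 0.09, adjusted p = 0.0352) was lost without DMSO replicate 2 or 3 or PD30 replicate 1 or 3 (adjusted p up to 0.140). ABCB1 (P-glycoprotein, chr7:87132333-87342639, minus strand) was at 45.4, 35.9 and 34.5 CPM in DMSO and at 18.6, 16.6 and 19.3 CPM in PD30 (log2 -1.10 ± 0.13, adjusted p = 9.32e-05). It was at 33.0, 27.2 and 33.1 CPM in PD24, where it did not pass against DMSO without the replicate block (log2 -0.29, 95% interval -0.59 to 0.01). PD30 was below PD24 by 0.81 (SE 0.12, adjusted p = 0.00196). Nutlin libraries held 41.8, 26.9 and 27.0 CPM and N+PD30 libraries 17.8, 13.6 and 16.8 CPM (log2 -1.04 ± 0.20, adjusted p = 0.00157). ABCB1 overlaps RUNDC3B on the opposite strand, and without a stated strand of the library kit the reads of overlapping genes may not be told apart. Low-level genes described above have such overlaps too, among them ABCA12 with SNHG31, ABCA9 with ABCA9-AS1 and ABCA3 with ABCA17P.

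ABCG2 (breast cancer resistance protein, chr4:89011302-89152780, minus strand) was at 10.1, 11.8 and 13.7 CPM in DMSO and at 11.2, 11.99 and 11.6 CPM with Nutlin. It was lower in PD24 with 5.53, 6.79 and 7.36 CPM (log2 -0.83 ± 0.17, adjusted p = 0.00474) and in PD30 with 4.96, 5.59 and 5.28 CPM (log2 -1.18 ± 0.15, adjusted p = 1.65e-04). N+PD30 held 5.12, 4.37 and 3.92 CPM, a fall of 1.43 against Nutlin (SE 0.18, adjusted p = 9.94e-05). N+PD24 held 8.20, 8.45 and 7.44 CPM (log2 -0.46 ± 0.14, adjusted p = 0.0306). Without any of 5 libraries in turn that last call was lost (adjusted p up to 0.0974), with N+PD24 replicate 1 the only exception. ABCB4, the phospholipid floppase next to ABCB1, fell more than 2-fold in PD24, from between 9.71 and 12.2 CPM to between 4.51 and 6.26 CPM (log2 -1.03 ± 0.16, adjusted p = 0.00117). In PD30 it was at 8.02, 5.78 and 10.4 CPM, which overlapped DMSO. Its value of 0.57 for PD30 against PD24 passed only with the block (adjusted p = 0.0889, and 0.0140 with the block).

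The mitochondrial members, among them ABCB6, ABCB8 and ABCB10, serve heme and iron-sulfur metabolism. ABCB10 (chr1:229652329-229694454, minus strand), the highest of subfamily B, fell in 5 of the 6 pairwise comparisons. It was at 39.9, 46.2 and 46.1 CPM in DMSO, 25.9, 22.3 and 22.7 CPM with Nutlin, 23.5, 21.0 and 23.5 CPM in PD24 and 28.0, 25.6 and 29.3 CPM in PD30. The levels with both drugs were lower still, with 14.7, 13.2 and 12.6 CPM in N+PD24 and 13.9, 17.6 and 18.5 CPM in N+PD30. All 3 single-drug groups lay below DMSO and above both combinations, with no overlap. The largest of its falls was that in PD24 (log2 -0.93 ± 0.11, adjusted p = 2.42e-04). In the fits without the replicate block, only PD30 against PD24 did not pass (log2 0.25, 95% interval -0.0022 to 0.50). Each PD30 library lay above the PD24 library of the same replicate number. ABCB6 rose with Nutlin by 0.68 ± 0.11 (adjusted p = 6.33e-04), and ABCB8 did not pass in any comparison without the block.

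Of the peroxisomal members, ABCD2, a transporter of very long-chain fatty acids, was at 1.61, 1.56 and 1.45 CPM in DMSO, 0.951, 0.801 and 1.32 CPM in PD24 and 3.20, 3.23 and 2.24 CPM in PD30. It was the largest rise among ABC genes in PD30 against PD24 (log2 1.44 ± 0.26, adjusted p = 0.00443), and its PD30 libraries lay above all others. With Nutlin, ABCD2 was the largest fall among ABC genes, with 0.918, 0.666 and 0.553 CPM (log2 -0.97 ± 0.25, adjusted p = 0.00868). ABCD3 was lower in PD30, PD24 and N+PD30 than in their controls (log2 -0.63, -0.37 and -0.53).

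In the lysosome, ABCB9, which imports peptides, rose with Nutlin from 12.4, 13.9 and 13.0 CPM to 21.7, 28.6 and 35.7 CPM (log2 1.25 ± 0.16, adjusted p = 1.53e-04). It fell in PD30 to 7.23, 8.48 and 8.999 CPM (log2 -0.68 ± 0.13, adjusted p = 0.00190), and in N+PD30 against Nutlin by 0.79 (SE 0.20, adjusted p = 0.00821). ABCB9 overlaps OGFOD2 and ARL6IP4 on the opposite strand. ABCC9, the sulfonylurea receptor subunit of potassium channels that respond to ATP, was at 10.9, 11.1 and 16.2 CPM in DMSO, 28.6, 19.6 and 27.2 CPM in PD24 and 19.5, 13.0 and 14.7 CPM in PD30. It rose in PD24 (log2 1.01 ± 0.19, adjusted p = 0.00345) and did not pass in PD30 (log2 0.29). Its other channel relative ABCC8 had at most 8 counts in any library.

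ABCE1 and the 3 genes of subfamily F act on ribosomes and translation and were among the highest ABC genes. All 4 fell with Nutlin, by 0.29 to 0.56 on the log2 scale and none by 2-fold (28% of all genes were lower). They were also lower with DESeq2 size factors and with total counts. The fall of ABCF2 (log2 -0.29 ± 0.09, adjusted p = 0.0216) was lost without DMSO replicate 2 or Nutlin replicate 3 (adjusted p up to 0.0951). ABCE1, which splits ribosomes after termination, was at 166, 195.6 and 208 CPM in DMSO and at 122.5, 117.3 and 116.8 CPM with Nutlin (log2 -0.55 ± 0.10, adjusted p = 0.00125). PD30 libraries held 134, 134.9 and 140.2 CPM (log2 -0.49 ± 0.09, adjusted p = 0.00176), but PD24 libraries were at 205, 171.3 and 199.8 CPM, within the spread of DMSO (log2 0.04, 95% interval -0.21 to 0.28). PD30 was below PD24 (log2 -0.53 ± 0.10, adjusted p = 0.00466). N+PD30 was lowest with 58.4, 84.2 and 94.3 CPM (log2 -0.63 ± 0.15 against Nutlin, adjusted p = 0.00598, and -0.47 ± 0.12 without its replicate 1). ABCE1 overlaps ANAPC10 and OTUD4 on the opposite strand.

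ABCF1, an activator of translation initiation, fell with Nutlin from 143.7, 151.2 and 155.1 CPM to 86.6, 93.3 and 100.1 CPM (log2 -0.56 ± 0.09, adjusted p = 4.13e-04). In PD30 it was at 136.5, 139.8 and 137.1 CPM and in N+PD30 at 121.6, 120.5 and 126.1 CPM. It was higher in N+PD30 than with Nutlin (log2 0.36 ± 0.11, adjusted p = 0.0212), a call that was lost without Nutlin replicate 1 or 2 or N+PD30 replicate 2 (adjusted p up to 0.0715). ABCF3 fell with Nutlin from between 58.6 and 61.0 CPM to between 37.9 and 43.1 CPM (log2 -0.43 ± 0.09, adjusted p = 0.00260) and was at 75.4, 61.6 and 61.9 CPM in N+PD30 (log2 0.67 ± 0.13 against Nutlin, adjusted p = 0.00194). ABCE1 and subfamily F thus went in opposite directions between Nutlin and N+PD30, with 2 of 3 genes of subfamily F higher and ABCF2 at 0.20 (adjusted p = 0.286).

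To ask directly whether PD0332991 changed the Nutlin response, the step from PD30 to N+PD30 was compared with that from DMSO to Nutlin in a fit over 12 libraries. The difference passed for 9 of 40 tested ABC genes, 4 with a higher and 5 with a lower response (12.8% and 7.03% of all genes tested). Of these, 0 with a higher and 4 with a lower response differed more than 2-fold (5.28% and 4.94%). The response of ABCC2 was 2.88 on the log2 scale without and 0.32 with PD0332991, a difference of -2.55 ± 0.24 (adjusted p = 8.79e-05). It was the only ABC gene with a lower response whose call held without any library in turn. The response of ABCA12 was 4.06 without and 2.75 with PD0332991, and its difference of -1.31 ± 0.33 (adjusted p = 0.0145) was lost without PD30 replicate 1 (adjusted p = 0.0521). The response was 1.71 and 0.26 for ABCA9, 1.43 and 0.27 for ABCA4, and 0.79 and -0.07 for ABCC9.

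The other 4 genes had a negative value for Nutlin alone and a value near 0 or above it with PD0332991. In the comparison of Nutlin with DMSO, ABCC10 did not pass, and the call of ABCD4 was lost in 3 of 6 fits without 1 library. The response of ABCF1 went from -0.61 to -0.07 (difference 0.54 ± 0.11, adjusted p = 0.00477), that of ABCF3 from -0.48 to 0.02, that of ABCD4, which exports cobalamin from lysosomes, from -0.40 to 0.03, and that of ABCC10, a drug exporter, from -0.35 to 0.36 (difference 0.71 ± 0.16, adjusted p = 0.00722). For ABCB11 the difference of -1.94 came with a 95% interval of -5.69 to 1.81, so that it could not be resolved at these counts. CFTR, outside the symbol rule, went from 3.04 to -0.40 (adjusted p = 0.0159). In this fit too, CFTR had enough counts only in the Nutlin libraries, so a call could only be a lower response.

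The genes tested in few or no comparisons had a few counts per library. ABCC12 had 1, 0 and 0 counts in DMSO, 4, 7 and 1 with Nutlin, 8, 32 and 24 in N+PD24 and 0 in each of the 3 N+PD30 libraries, and a count of 0 allows up to 3 counts per library. It was the largest rise in N+PD24 against Nutlin (log2 1.79 ± 0.44 on log2 of CPM with 0.1 added, adjusted p = 0.0115). Only its N+PD24 libraries met the limit of 0.3 CPM, so a call there could only be a rise. ABCG8 had at most 1 count per library in DMSO and 3, 7 and 8 with Nutlin. ABCC11 and ABCG5 had at most 8 and 3 counts in any library. ABCC13, a pseudogene under a family symbol, had 0 to 10 counts.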

How the data were processed

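Total RNA of 18 SJSA cultures was sequenced as single reads. Alignment by the authors used TopHat with Bowtie 2 on the hg19 build. HTSeq 0.6.0, set to reverse-stranded reads, then gave counts for each gene symbol. Whether the library kit marks strand is not given in the sources used here. The authors deposited raw counts for 5 groups under names that call them variance-stabilized. The values they deposited for N+PD24 are a signal: each library's counts were divided by its own size factor. Multiplied back, 100% of its values were whole reads. Tables of size-factor values served only to check the counts of DMSO, PD30, Nutlin and N+PD30, where 100% of values shared the divisor of their library. The authors' DESeq2 comparison of Nutlin with DMSO (base means, fold changes, p-values) was not used. Of the gene names, 28 had become dates and were kept.

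Each comparison was fitted on its 2 groups with edgeR 4.0.16 (quasi-likelihood test, TMM, filterByExpr) in R 4.3.3, and the interaction on 4 groups. N+PD24 was tested with limma 3.58.1 (trend) on log2(CPM + 0.1) for genes with at least 0.3 CPM in 3 libraries, and its fold changes are on that scale. P-values were adjusted by Benjamini-Hochberg over all genes tested. The fits were tested on simulated data. Alternatives were DESeq2 1.42.0, its size factors, total counts, no filter, another pseudocount, edgeR on recovered reads, a 2-fold limit, a replicate block, and leaving out each library. Gene positions and canonical transcript lengths are from GENCODE on the same build, promoters from RefSeq.

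Replicate numbers come from the sample labels. They were taken to pair samples where same-numbered libraries deviated together in all 3 pairs (correlations of deviations from the group means above 0.1): 0.100, 0.159 and 0.585 for PD24 with DMSO, 0.314, 0.551 and 0.286 for PD30 with PD24, and 0.650, 0.417 and 0.494 for N+PD24 with Nutlin. The genes and lists were chosen with earlier results of these data known. Genes named in the text are ABCA1 and ABCG1, those past the adjusted p and a 2-fold change in any comparison, the largest rise and fall in each, and the highest per kilobase of each subfamily in DMSO. Others named (such as ABCA8, ABCB6 and the genes tested in few comparisons) were added after their values were seen. Some genes are not reported here by name, though they are part of the counts.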

Additional observations from a re-analysis of the deposited data

Results flagged for a closer look

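The Nutlin response differed with and without PD0332991 for 9 ABC genes by the interaction term over 12 libraries (edgeR's quasi-likelihood test, adjusted p below 0.05 over 16113 genes). The difference, as the log2 response with PD0332991 minus that without it, was -2.55 for ABCC2, -1.45 for ABCA9, -1.31 for ABCA12, -1.17 for ABCA4 and -0.85 for ABCC9. It was 0.71 for ABCC10, 0.54 for ABCF1, 0.50 for ABCF3 and 0.44 for ABCD4. Without single libraries, ABCC2, ABCC10 and ABCF1 kept their calls in all 12 fits, ABCA12 lost its call without PD30 replicate 1 (adjusted p = 0.0521), and ABCC9 lost it in 4 fits (DMSO replicates 1 and 2, PD30 replicate 1 and N+PD30 replicate 2, adjusted p up to 0.0604). ABCA9 lost it in 5 fits, those without DMSO replicate 1 or 2, Nutlin replicate 1, PD30 replicate 1 or N+PD30 replicate 2 (adjusted p up to 0.0746). ABCF3 lost it in 7 (adjusted p up to 0.0737), and held it without DMSO replicate 3, Nutlin replicate 3, PD30 replicate 2 or N+PD30 replicate 2 or 3. ABCA4 lost it in 9 (up to 0.101), and held it without DMSO replicate 1, PD30 replicate 3 or N+PD30 replicate 1. ABCD4 lost it in 10 (up to 0.0998), and held it without PD30 replicate 1 or N+PD30 replicate 3. With the other processing alternatives included, ABCD4 lost its call in 13 of 17 settings and ABCF3 in 8 of 17. Whether the responses differ with PD24 was not tested.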

How the results depend on the processing

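Of 112 calls of ABC genes, 81 held under each alternative at the adjusted p, and 0 changed direction. A 2-fold limit left 10 higher and 0 lower genes with Nutlin, 3 and 4 in PD30, 2 lower in PD24, 1 and 2 in PD30 against PD24, 2 and 10 in N+PD30, 4 and 0 in N+PD24, and 0 higher in the interaction. The replicate block gave 6 higher genes in PD30 against PD24 and 9 lower in N+PD24, and in the comparisons not taken as paired it gave 12 higher and 11 lower in PD30, 17 and 8 with Nutlin, 8 and 16 in N+PD30 and 4 and 6 in the interaction. Scaling N+PD24 by totals alone gave 6 lower genes, and DESeq2 size factors gave 2 higher in the interaction. These size factors moved the interaction calls over all genes from 2060 higher and 1133 lower to 1756 higher and 1296 lower. Without each library in turn, the counts of higher and lower genes ranged from 15 to 19 and 6 to 9 with Nutlin, 5 to 9 and 9 to 11 in PD30 (5 without DMSO replicate 2), 5 to 9 and 5 to 7 in PD24 (5 without DMSO replicate 2), 1 to 2 and 4 to 7 in PD30 against PD24 (4 without PD30 replicate 3), 7 to 10 and 14 to 17 in N+PD30, 5 to 8 and 1 to 4 in N+PD24 (5 and 1 without N+PD24 replicate 2), and 2 to 6 and 1 to 6 in the interaction (1 without PD30 replicate 1). Leaving out a library removes samples from the fit. The causes of the other changes were not tested. With 3 libraries per group, genes under about 1 CPM rest on few counts.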
